A study of Mus musculus with 4 samples.

Results

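The 44 genes described here encode the machinery that takes proteins into the endoplasmic reticulum (ER) and carries them between the ER and the Golgi apparatus in the colonic epithelium of mice. They were chosen by symbol, not by a rule on their values, but with earlier results of these data known. The symbols come from 7 parts of this route: the Sec61 translocon with Sec62 and Sec63 (5 genes), the COPII coat with its exit site proteins (12), the p24 or TMED cargo receptors (9), the lectin and SURF4 cargo receptors (4), the SEC22 fusion proteins (2), the COPI coat (9) and the KDEL receptors (3). All 44 were among the 16015 genes listed, and all 44 passed the filter on low values, as 13983 genes did in all. Bulk RNA sequencing was available for 2 mice labelled WT and 2 labelled *Bmal1* cKO, and the comparison asks how *Bmal1*, a core transcription factor of the circadian clock, acts in colitis. The cKO mice were *Villin-CreERT2; Bmal1* fl/fl, in which tamoxifen given for 5 days activates Cre in the intestinal epithelium, and the controls were *Bmal1* fl/fl mice, so both groups carry the floxed allele. All mice were C57BL/6, 2 to 4 months old and of the same litter. They drank 3% dextran sulfate sodium (DSS), a polysaccharide that injures the colonic epithelium, for 5 days, then water for 2 days, and the colonic epithelium was collected on day 7. There was no group without DSS, so every comparison is between injured colons.

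Proteins bound for secretion or for membranes enter the ER through the Sec61 channel. The small GTPase SAR1 then recruits the SEC23 and SEC24 layer and the SEC13 and SEC31 cage of the COPII coat, which buds vesicles at exit sites organised by SEC16. Cargo receptors link the load to the coat, and the COPI coat returns receptors and escaped ER proteins from the Golgi. Goblet cells, which make the mucins of the colon, and plasma cells, which make antibodies, depend heavily on this route.

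The reads on listed genes numbered between 10312791 and 14156639 per library. Values are given as normalized counts, that is, reads on a gene over the size factor computed for that library. The targeted gene, whose listed symbol is *Arntl*, lies on chromosome 7 of GRCm38, from 113207465 to 113314126. It had 358 and 342 normalized counts in WT mice against 341 and 289 in cKO mice. Its log2 fold change was -0.16, with a standard error of 0.14 and an adjusted p of 0.389 from limma. This difference did not pass the test. Reads were summed over the whole gene, so which exons they came from cannot be seen, and "cKO library" below means a library labelled *Bmal1* cKO. The log2 fold change of a gene also followed its GC content, with Spearman's rho of -0.62 across 13975 tested genes, which share the same 4 libraries and are not independent. For this reason the fold changes and calls of the 44 genes are given as they stand and after a loess fit on GC content and exon length was removed from each library, called the correction from here on.

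The summed markers of leukocytes, stroma and vessels, plasma cells and goblet cells were lower in both cKO libraries than in both WT libraries. Of all tested genes, 27.7% were called lower in the cKO libraries, or 17.7% after the correction. The summed normalized counts of 17 leukocyte genes were 18406 and 32245 in the WT libraries and 5735 and 5253 in the cKO libraries, and 12 of the 16 tested were lower (10 after the correction). Those of 11 genes of stroma and vessels were 15806 and 3727 against 456 and 509.6, and 10 were lower (all 11 after the correction). *Col3a1*, with the highest mean of this list, had 4774 and 927 normalized counts in the WT libraries and 155 and 119 in the cKO libraries. *Des*, of muscle, and *Rgs5*, of pericytes, were each at 0 in 1 cKO library, and were picked for this after their values were seen. The 8 plasma cell genes listed summed to 64659.5 and 4749 against 2907 and 2886, and 2 of the 8 were lower (0 after the correction). *Sdc1*, which epithelium also makes and which was picked after its values were seen, took 3379 of the sum in WT mouse 2 and 2408 in cKO mouse 1. WT mouse 1 stood apart there, with 34580.4 normalized counts of *Igha*, the heavy chain of IgA, against 565 in WT mouse 2 and 195 and 239 in the cKO mice. The 10 goblet cell genes summed to 240459 and 488578 against 74654 and 106075, and 7 were lower (4 after the correction). *Fcgbp*, a mucus protein of goblet cells, had 62624 and 117649 normalized counts in the WT libraries and 23783 and 24486 in the cKO libraries. Its log2 fold change of -1.83 (adjusted p = 0.00622 from limma) was -0.84 after the correction and not called (adjusted p = 0.118). The 10 genes of colonic epithelium summed to 141823 and 164298 against 129069 and 137233, with 1 higher and 4 lower, or 4 higher and 0 lower after the correction. Their cytokeratin *Krt8*, at 33319 to 39915 normalized counts in every library, is of the labelled tissue. In bulk samples, fewer cells of a type and less RNA per cell cannot be told apart. The 44 transport genes summed to 68716 and 70185 in the WT libraries and 110068 and 115877 in the cKO libraries. The part of cell composition in the results was not tested.

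**Figure D1:**
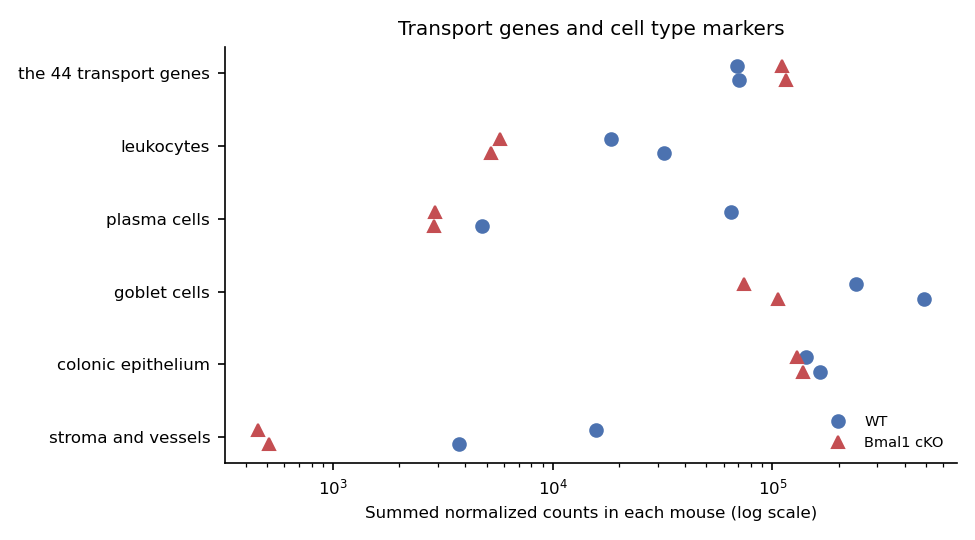
Summed normalized counts (log scale) of the 44 transport genes and of the markers of 5 cell types in each mouse, with circles for WT and triangles for Bmal1 cKO. The transport genes sum to 68716 and 70185 in WT and 110068 and 115877 in cKO, while the goblet, leukocyte, plasma cell and stromal markers are lower in both cKO mice than in both WT mice.

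Promoter sequence was available for 38 of the 44 genes, as 42 windows from 250 bases before to 50 bases after a RefSeq start site (GRCm38.p6). They were searched on both strands for CACGTG, the E-box that BMAL1 and CLOCK are known to bind, and for TGACGTGG, a motif bound by ATF6 and XBP1, which raise secretory capacity when the ER is loaded. CACGTG was in 5 of the 42 windows (11.9%), and in 7.15% of all 32851 promoter windows and 9.45% of the 13778 windows of tested genes. TGACGTGG was in 6 of 42 (14.3%), against 0.676% of all windows and 0.994% of those of tested genes. Neither motif holds the letters of the other. TGACGTCA, the cyclic AMP response element, was in 1 window (2.38%), that of *Cope*, against 1.79% of all windows and 2.89% of those of tested genes. The ER stress response element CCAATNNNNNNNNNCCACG was in 0 of 42 windows, against 0.119% of all and 0.138% of those of tested genes. The stretches around the 6 matches of TGACGTGG follow, so that their position at the start site can be seen, with the motif, or its reverse complement, in capitals. Its first base lay 44 bases before the start site in *Sec16b*, 26 in *Sec24d*, 28 in *Copb1*, 7 in *Copb2* and 30 in *Kdelr3*, and at base 7 of the transcript in *Sec23a*.
Sec16b (chr1:157506742-157506769, plus strand): tctgtgtggcTGACGTGGcacggcagtt
Sec24d (chr3:123267460-123267487, plus strand): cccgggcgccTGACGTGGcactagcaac
Copb1 (chr7:114254691-114254718, minus strand): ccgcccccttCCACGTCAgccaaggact
Copb2 (chr9:98563714-98563741, plus strand): cccggaagttCCACGTCAgtgggttggc
Sec23a (chr12:59011994-59012021, minus strand): tcctccccttTGACGTGGcagaggcggc
Kdelr3 (chr15:79516342-79516407, plus strand): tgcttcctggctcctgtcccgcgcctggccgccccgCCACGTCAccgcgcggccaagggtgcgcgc

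The 5 stretches with the E-box follow, with CACGTG in capitals, since BMAL1 is the factor targeted. Its first base lay 32 bases before the start site in *Sec62*, 7 in *Sar1a*, 11 in *Tmed10*, 136 in *Tmed8* and 73 in *Mcfd2*.
Sec62 (chr3:30792808-30792874, plus strand): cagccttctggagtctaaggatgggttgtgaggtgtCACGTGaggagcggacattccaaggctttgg
Sar1a (chr10:61680242-61680284, plus strand): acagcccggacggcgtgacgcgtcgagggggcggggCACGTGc
Tmed10 (chr12:85374718-85374738, minus strand): agaggcgcgtCACGTGggtgc
Tmed8 (chr12:87200350-87200375, minus strand): ccgcccctctCACGTGtcaggccagc
Mcfd2 (chr17:87265979-87266056, minus strand): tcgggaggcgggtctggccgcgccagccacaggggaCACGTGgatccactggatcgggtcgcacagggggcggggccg

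Both sets hold genes that were higher in the cKO libraries and genes that were not. Of those with TGACGTGG, *Sec23a*, *Copb1*, *Copb2*, *Sec16b* and *Sec24d* were higher and *Kdelr3* was not called, and after the correction *Sec23a*, *Copb1* and *Sec16b* were higher and the other 3 not called. Of those with the E-box, *Sar1a*, *Sec62* and *Mcfd2* were higher and *Tmed8* and *Tmed10* were not called, and after the correction *Sar1a* and *Mcfd2* were higher, *Sec62* was not called and *Tmed8* and *Tmed10* were lower. A match says only that the letters are there, not that a factor binds.

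Of the 44 genes, 27 were higher and 3 lower in the cKO libraries, and 14 were not called (limma on log2(normalized count + 1), Benjamini-Hochberg adjusted p under 0.05 over all tested genes, two-sided). Among all 13983 tested genes, 29.0% were higher and 27.7% lower. The median log2 fold change of the 44 was 0.52, against -0.04 for all tested genes, and 34 of the 44 were above 0. After the correction, 16 were higher and 5 lower, where 16.2% and 17.7% of 13975 tested genes were, and the median was 0.22. Of the 27 genes higher at first, 15 remained higher and 12 were no longer called. Of the 3 lower, 2 remained lower. *Tmed1* became higher, and *Tmed8*, *Tmed10* and *Sec22b* became lower. Scaling by library totals instead lowered the median of all genes by 0.22 and that of the 44 to 0.29. Of the 44, 22 were then higher and 7 lower, where 22.1% of all tested genes were higher and 34.9% lower. The genes called in the same direction under all 16 other ways of processing were *Tmed7*, *Sec23a*, *Sec24a*, *Sar1a*, *Sar1b*, *Sec61a1*, *Copb1*, *Mcfd2* and *Surf4*, which were higher, and *Sec61b* and *Sec61g*, which were lower. Mice of a group were close to each other in these genes, with a median absolute log2 difference of 0.07 between the WT mice and 0.10 between the cKO mice.

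**Figure D2:**
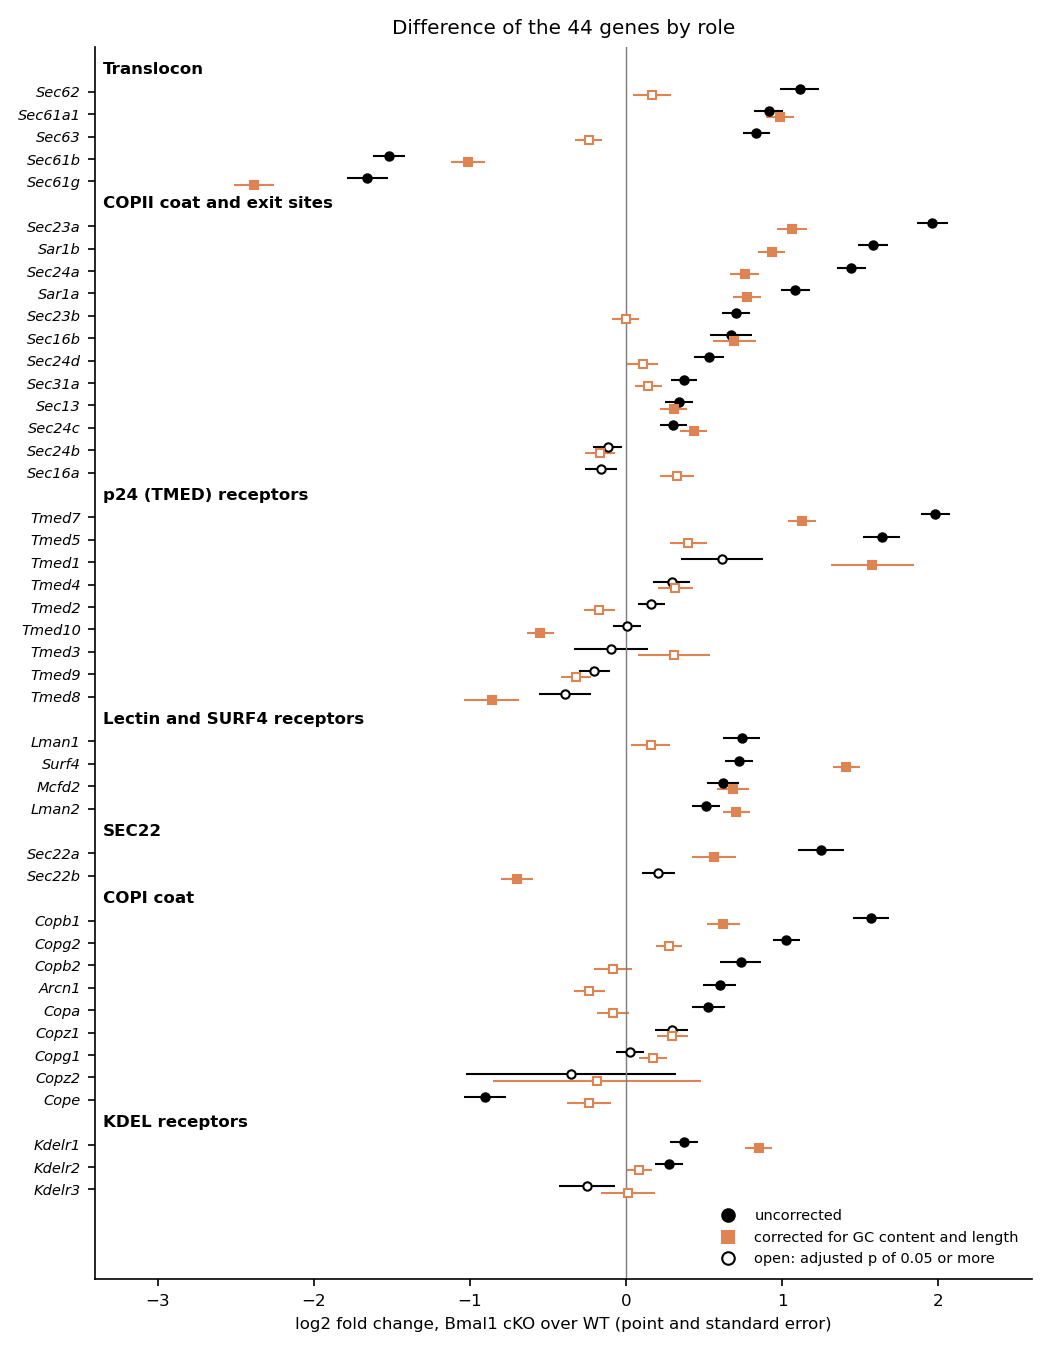
Log2 fold change of Bmal1 cKO over WT with its standard error (n = 2 mice per group) for the 44 genes by role, without (black circles) and with (orange squares) the correction for GC content and length. Filled symbols have an adjusted p under 0.05 from limma. The COPII genes and the lectin and SURF4 receptors lie mostly right of 0 in both, Copa, Copb2, Arcn1 and Copb1 move downwards with the correction, and Sec61b and Sec61g lie left of 0 in both.

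The subunits of the Sec61 channel went in opposite directions. *Sec61a1*, which encodes the pore-forming subunit, rose 1.88-fold, while *Sec61b* and *Sec61g*, which encode its small single-span partners, fell 2.87-fold and 3.16-fold. *Sec61a1* (chromosome 6, from 88503579 to 88518905) was at 2924 and 2972 normalized counts in WT mice and at 5770.4 and 5336 in cKO mice (log2 fold change 0.91, standard error 0.09, adjusted p = 0.0011 from limma). After the correction it was 0.99 (adjusted p = 0.00349 from limma). Every cKO library was above every WT library, as in 40.3% of all tested genes, while in 41.7% every cKO library was below. *Sec61b* (chromosome 4, 47474658 to 47483242) had 1173 and 1093 normalized counts against 402 and 388 (log2 fold change -1.52, standard error 0.10, adjusted p = 0.000533), and -1.01 on the log2 scale after the correction (adjusted p = 0.00437). *Sec61g* (chromosome 11, 16500530 to 16508484) had 781 and 803 against 230.4 and 272 (log2 fold change -1.66, standard error 0.13, adjusted p = 0.00064), and -2.38 on the log2 scale after the correction (adjusted p = 0.00275). The groups did not overlap in either gene, and both were lower in every cKO mouse. Per kilobase of exon, the ratio of *Sec61b* to *Sec61a1* was 2.13 and 1.95 in the WT libraries and 0.369 and 0.385 in the cKO libraries. That of *Sec61g* to *Sec61a1* was 0.730 and 0.738 against 0.109 and 0.139. The ratio of *Sec61b* to *Sec61g* was 2.91 and 2.64 against 3.38 and 2.77, ranges that overlap. Both small subunits have coding lengths of at most 300 bases (288 and 300), and the 249 tested genes of this class had a median log2 fold change of -0.45, with 42.6% lower. *Sec61g* lay at the lower quartile of that class (-1.66) and *Sec61b* just above it, and the part of transcript length in their fall was not tested.

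*Sec62* and *Sec63*, which help proteins into the channel after their synthesis, were higher, but not after the correction. *Sec62* had 999 and 994 normalized counts in the WT libraries and 1938 and 2394 in the cKO libraries, a log2 fold change of 1.11 (adjusted p = 0.00146 from limma) that was 0.16 after the correction (adjusted p = 0.324). *Sec63* had 1266 and 1237 against 2179.6 and 2287, a log2 fold change of 0.83 (adjusted p = 0.00116) that turned to -0.24 with the correction (adjusted p = 0.0806). Both are GC-poor, at 41.5% and 40.7%. Of the exon bases of *Sec62*, 11.7% are shared with a gene on the other strand, 4933429H19Rik, and the sources used here do not say whether strand was kept.

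In the COPII coat 10 of 12 genes were higher and 0 lower, and 7 were higher and 0 lower after the correction. Under library total scaling 7 were higher and 2 lower, *Sec16a* at -0.39 (adjusted p = 0.0194) and *Sec24b* at -0.34 (adjusted p = 0.0293). Its genes summed to 15933 and 16242 normalized counts in the WT libraries and 26543 and 27399.9 in the cKO libraries. *Sec23a*, which encodes the inner coat subunit that makes SAR1 hydrolyse GTP, had the largest log2 fold change of the 12, with and without the correction. With GC content and length taken from coding mRNAs instead of all exons (below, by coding mRNAs), *Sec24a*, at 1.19, was above it, at 1.09. *Sec23a* had 962 and 1094 normalized counts in the WT libraries and 3938 and 4058 in the cKO libraries, 3.89-fold higher (log2 fold change 1.96, standard error 0.10, adjusted p = 0.000533 from limma). After the correction the log2 fold change was 1.06 (adjusted p = 0.00349). Its paralog *Sec23b* had 1377 and 1375 against 2158 and 2328 (log2 fold change 0.70, adjusted p = 0.0021), which became -0.0039 with the correction (adjusted p = 0.977). The groups did not overlap in either paralog. The share of *Sec23a* in the pair, per kilobase of exon, was 47.6% and 50.9% in the WT libraries and 70.4% and 69.4% in the cKO libraries.

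Both SAR1 genes, which encode the GTPase that starts the coat, were higher with and without the correction. *Sar1b* had 836 and 869 normalized counts against 2444 and 2674, 3.001-fold higher (log2 fold change 1.58, standard error 0.09, adjusted p = 0.000533), and its corrected log2 fold change was 0.93. *Sar1a* had 1678 and 1601 against 3353 and 3601, 2.12-fold higher (log2 fold change 1.08, standard error 0.09, adjusted p = 0.000695), and its corrected log2 fold change was 0.77. The cKO libraries were above the WT libraries in both genes. The share of *Sar1b* went from 59.8% and 61.8% to 68.5% and 68.9% per kilobase of exon, and from 33.3% and 35.2% to 42.2% and 42.6% per coding kilobase. It rose on both scales, but which of the pair was the more abundant depended on the length used. *Sar1b* lies head to head with *Sec24a* on chromosome 11, with 52 bases between the annotated genes.

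The 4 SEC24 genes, which encode the cargo-binding subunits, differed from each other. *Sec24a* had 921 and 997 normalized counts against 2671 and 2545, 2.72-fold higher (log2 fold change 1.44, standard error 0.09, adjusted p = 0.000533), and 0.76 on the log2 scale after the correction (adjusted p = 0.0054). *Sec24b* had 1143 and 1092 against 1049 and 1009.7 (log2 fold change -0.12, adjusted p = 0.307, and -0.17 after the correction, not called). The groups did not overlap in either, but those of *Sec24b* were close. *Sec24c* had a log2 fold change of 0.30 (adjusted p = 0.0286), or 0.43 corrected, and lost its call under library total scaling (0.08). *Sec24d* had 879 and 871 against 1212 and 1322 (log2 fold change 0.53, adjusted p = 0.00661), which was 0.11 after the correction (adjusted p = 0.433) and 0.78 by coding mRNAs (adjusted p = 0.00575). The share of *Sec24a* among the 4 was 11.3% and 12.3% in the WT libraries and 24.1% and 22.6% in the cKO libraries per kilobase of exon, and that of *Sec24b* fell from 24.9% and 23.8% to 16.8% and 15.9%.

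Of the cage, *Sec31a* had the highest mean of the COPII genes over all 4 libraries, with 2603 and 2563 normalized counts against 3361 and 3329 (log2 fold change 0.37, adjusted p = 0.0141), and 0.14 on the log2 scale after the correction (adjusted p = 0.249) or 0.56 by coding mRNAs (adjusted p = 0.00918). Its partner *Sec13* had a log2 fold change of 0.34 (adjusted p = 0.023), or 0.30 corrected (adjusted p = 0.0485). Both lost their call under library total scaling, at 0.15 and 0.11. Of the exit site scaffolds, *Sec16b* had 314 and 330.3 against 474 and 558 (log2 fold change 0.67, adjusted p = 0.00965) and 0.69 on the log2 scale after the correction. *Sec16a* had 1893 and 2140.5 against 1836 and 1765, and its log2 fold change of -0.16 (adjusted p = 0.217) turned to 0.33 with the correction (adjusted p = 0.0712) and was -0.30 by coding mRNAs (adjusted p = 0.0845).

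**Figure D3:**
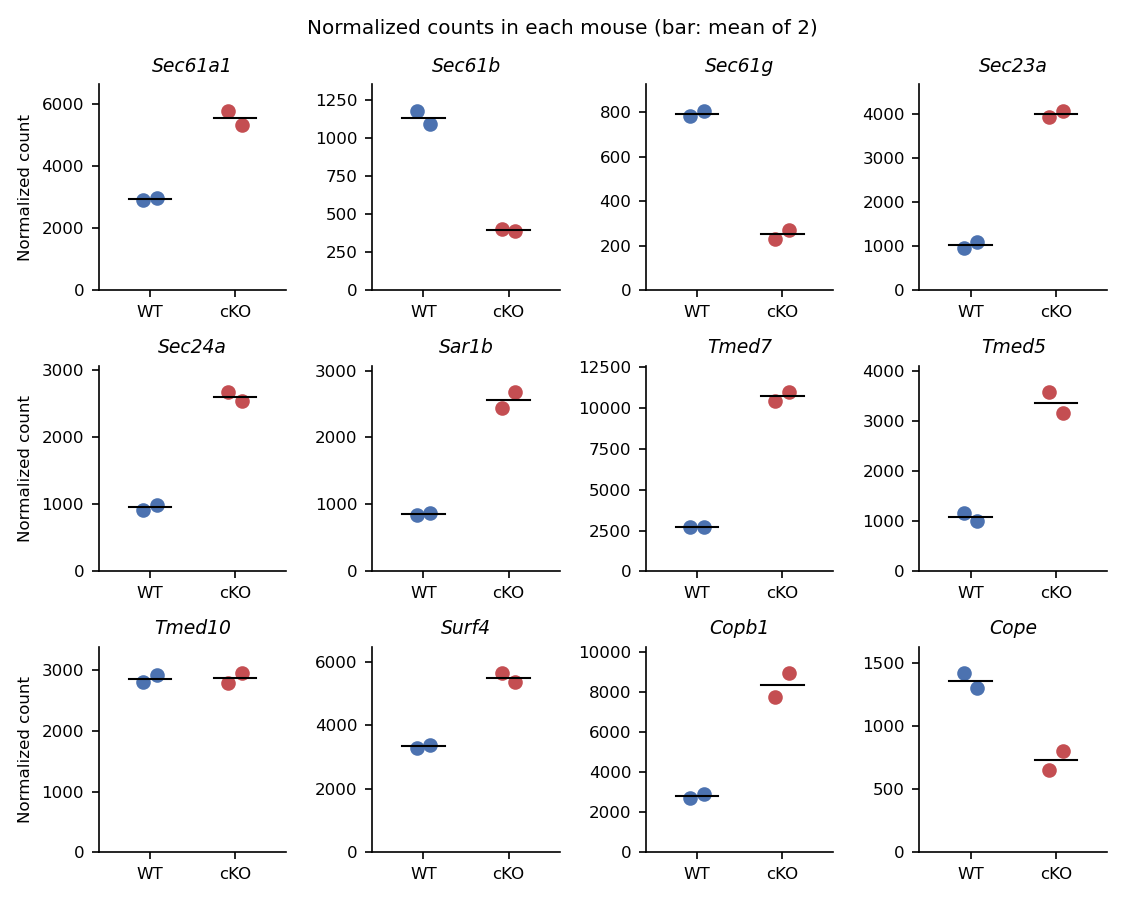
Normalized counts of 12 transport genes in each of the 2 WT and 2 Bmal1 cKO mice, with a bar at the mean of each group and every axis starting at 0. Tmed10 overlaps between the groups, at 2783 to 2941, and the other 11 do not, where 40.3% of all tested genes have both cKO mice above both WT mice and 41.7% have them below. Sec61b, Sec61g and Cope are lower in both cKO mice and the other 8 are higher.

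The p24 proteins, encoded by the *Tmed* genes, are abundant membrane proteins that cycle between ER and Golgi and sort cargo such as lipid-anchored proteins. Of 9 genes, 2 were higher, 0 lower and 7 not called. After the correction 2 were higher and 2 lower, and *Tmed7* was called higher in both. Without the correction 22.2% were higher and 0% lower, against 29.0% and 27.7% of all tested genes. With it 22.2% were higher and 22.2% lower, against 16.2% and 17.7%. *Tmed7* had 2697 and 2730.0 normalized counts in the WT libraries and 10471 and 10972 in the cKO libraries, 3.95-fold higher (log2 fold change 1.98, standard error 0.09, adjusted p = 0.000533 from limma), and 1.13 on the log2 scale after the correction (adjusted p = 0.00311). By coding mRNAs its log2 fold change was 2.09 (adjusted p = 0.00257). *Tmed7* had the largest log2 fold change of the 44 genes without the correction and by coding mRNAs. Of its exon bases, 9.48% are shared with *Ticam2* on the same strand. *Tmed5* had 1169 and 1000.4 against 3578 and 3164 (log2 fold change 1.64, adjusted p = 0.000562). It is the most GC-poor of the 44, at 38.7%, and its corrected log2 fold change was 0.40 (adjusted p = 0.0506), or 1.38 by coding mRNAs, where it was called (adjusted p = 0.00358).

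The other p24 genes were at similar levels in both groups or changed with the correction. *Tmed10*, which has the highest mean among those not called, had 2801 and 2906 against 2783 and 2941 (log2 fold change 0.00398, adjusted p = 0.972), and -0.55 on the log2 scale after the correction (adjusted p = 0.00949), a call lost by coding mRNAs (-0.15, adjusted p = 0.207). *Tmed2*, which pairs with *Tmed10* in p24 complexes, had 2566 and 2464 against 2892 and 2737 (log2 fold change 0.16, adjusted p = 0.167), and -0.17 after the correction (adjusted p = 0.225), but was lower by coding mRNAs (-0.41, adjusted p = 0.0251). The groups overlapped in *Tmed10* and were close in *Tmed2*. *Tmed8* had 255 and 219 against 177 and 184 (log2 fold change -0.39, adjusted p = 0.0952), and -0.86 after the correction (adjusted p = 0.0188). *Tmed1* had 117 and 89.8 against 184 and 134 (log2 fold change 0.61, adjusted p = 0.0966), and 1.58 after the correction (adjusted p = 0.0115), the largest of the 44 after it. By coding mRNAs, where *Tmed7* was largest, *Tmed1* was at 1.39 (adjusted p = 0.0133). *Tmed1* is the most GC-rich of the 44, at 57.0%, and 13.6% of its exon bases are shared with *Dnm2* on the other strand. *Tmed3* had 642 and 651 against 474 and 772, and its log2 fold change of -0.10 turned to 0.31 with the correction, neither past the test. *Tmed4* and *Tmed9*, at 0.29 and -0.20, were not called with or without it. Under library total scaling *Tmed9* was lower, at -0.43 (adjusted p = 0.0155). The share of *Tmed7* among the 9 genes went from 10.02% and 10.4% to 27.6% and 28.0% per kilobase of exon, and that of *Tmed2* from 33.3% and 32.8% to 26.6% and 24.4%.

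All 4 genes of the lectin and SURF4 cargo receptors were higher, and 3 of 4 after the correction. *Surf4*, which encodes a receptor for soluble secreted proteins, had 3286 and 3384 normalized counts in the WT libraries and 5634 and 5362 in the cKO libraries (log2 fold change 0.72, standard error 0.09, adjusted p = 0.00198 from limma). After the correction its log2 fold change was 1.41 (adjusted p = 0.00291), and its GC content of 54.8% is the highest of the genes that were higher. The 1364 tested genes within 1 percentage point of that GC content had a median log2 fold change of -0.74. *Mcfd2*, the calcium-binding partner of LMAN1, had 1348 and 1547 against 2243 and 2205 (log2 fold change 0.62, adjusted p = 0.00492, and 0.68 after the correction). *Lman2*, which encodes the lectin VIP36, had 2997 and 3088 against 4489 and 4204 (log2 fold change 0.51, adjusted p = 0.00616, and 0.70 after the correction). *Lman1*, which encodes the lectin ERGIC-53, had 1161 and 1035 against 1695 and 1980.2 (log2 fold change 0.74, adjusted p = 0.00455) and was not called after the correction (0.16, adjusted p = 0.36). The groups did not overlap in any of the 4, beside the 40.3% of all tested genes in which both cKO libraries were above.

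The 2 SEC22 genes, whose proteins act in membrane fusion or transport between ER and Golgi, differed. *Sec22a* had 271 and 337 normalized counts against 739.6 and 699 (log2 fold change 1.25, standard error 0.15, adjusted p = 0.00163 from limma), and 0.56 on the log2 scale after the correction (adjusted p = 0.0316). *Sec22b*, the SNARE proper, had 725 and 800.5 against 848 and 912 (log2 fold change 0.21, adjusted p = 0.149), which turned to -0.70 with the correction (adjusted p = 0.00813). By coding mRNAs neither was called, at 0.39 (adjusted p = 0.0963) and -0.08 (adjusted p = 0.53). The share of *Sec22a* in the pair was 22.2% and 24.3% in the WT libraries and 39.9% and 36.8% in the cKO libraries per kilobase of exon.

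**Figure D4:**
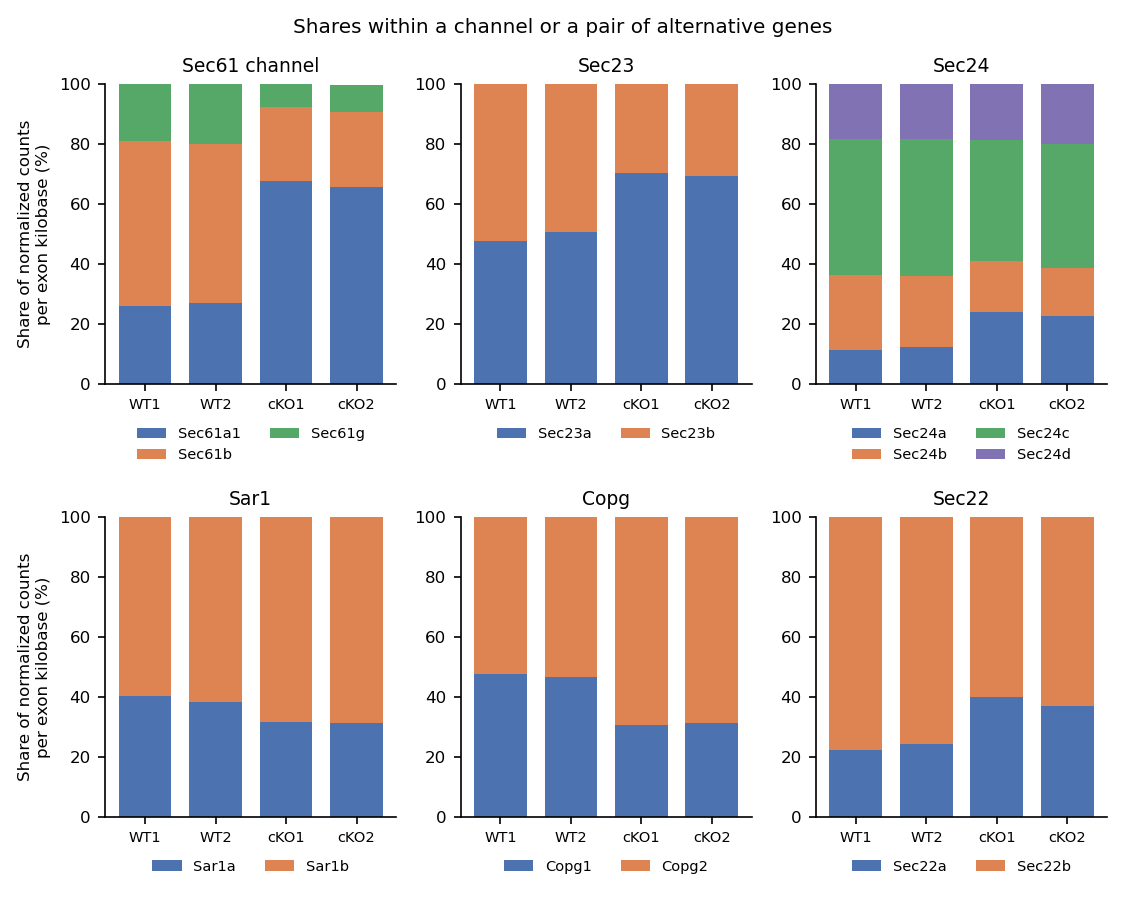
Shares in each library, in percent of normalized counts per exon kilobase, of the 3 Sec61 channel subunits and of the alternative genes for SEC23, SEC24, SAR1, the COPI gamma subunit (Copg) and SEC22. Sec61a1 goes from 25.9% and 27.1% in WT to 67.6% and 65.6% in cKO, Sec23a from 47.6% and 50.9% to 70.4% and 69.4%, and Copg2 from 52.3% and 53.4% to 69.5% and 68.9%.

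The COPI coat, a complex of 7 subunits whose genes number 9 here because the gamma and zeta subunits each have a pair, lost most of its calls with the correction. Without it 5 genes were higher and 1 lower, and with it 1 was higher and 0 lower. These are 55.6% and 11.1% without it, against 29.0% and 27.7% of all tested genes. With it they are 11.1% and 0%, against 16.2% and 17.7%. *Copb1*, the beta subunit, had the highest mean over all 4 libraries and stayed higher, although *Copa* and *Arcn1* were above it in the WT libraries. It had 2691 and 2918 normalized counts against 7741 and 8918, 2.97-fold higher (log2 fold change 1.57, standard error 0.11, adjusted p = 0.000546 from limma), and 0.62 on the log2 scale after the correction (adjusted p = 0.0119). *Copa*, the alpha subunit, had 4389.7 and 4638 against 6124 and 6881 (log2 fold change 0.52, adjusted p = 0.00967), and -0.08 after the correction (adjusted p = 0.543). *Arcn1*, the delta subunit, had 4312 and 4458 against 6215 and 7096 (log2 fold change 0.60, adjusted p = 0.00655), and -0.24 after the correction (adjusted p = 0.119). *Copb2*, the beta prime subunit, had 2277 and 2496 against 3572 and 4413 (log2 fold change 0.74, adjusted p = 0.00639), and -0.09 after the correction (adjusted p = 0.606). These 4 were higher in every cKO library before the correction, and their GC contents of 41.8% to 44.7% are below the median of all tested genes, 49.1%.

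*Cope*, the epsilon subunit, was the one COPI gene that was lower, with 1418 and 1304 normalized counts in the WT libraries and 654 and 807 in the cKO libraries (log2 fold change -0.90, standard error 0.13, adjusted p = 0.00332 from limma). It was not called after the correction (-0.24, adjusted p = 0.238), and its GC content is 54.6%. *Copg2* had 1132 and 1175 against 2304 and 2391 (log2 fold change 1.02, adjusted p = 0.000706, and 0.27 with an adjusted p of 0.0545 after the correction), while its paralog *Copg1* had 2218 and 2205 against 2171 and 2325 (log2 fold change 0.02, adjusted p = 0.834, with 0.17 after the correction and -0.20 under library total scaling). The share of *Copg2* in the pair went from 52.3% and 53.4% to 69.5% and 68.9% per kilobase of exon, and from 33.9% and 34.8% to 51.6% and 50.8% per coding kilobase. Of the exon bases of *Copg2*, 17.8% are shared with *Mest* on the other strand. Of the zeta subunits, *Copz1* was not called (log2 fold change 0.29, adjusted p = 0.0667, and 0.30 after the correction), and *Copz2*, at 18.5 to 59.1 normalized counts, overlapped between the groups (log2 fold change -0.35, and -0.19 after the correction, neither called).

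The KDEL receptors return escaped chaperones to the ER. *Kdelr1* had 1260.5 and 1301 normalized counts in the WT libraries and 1618 and 1696 in the cKO libraries (log2 fold change 0.37, standard error 0.09, adjusted p = 0.0167 from limma), and 0.85 on the log2 scale after the correction (adjusted p = 0.00375). It lost its call under library total scaling (0.15, adjusted p = 0.198). *Kdelr2*, with the highest level per kilobase of exon of all 44 genes in the WT libraries, had 1860.3 and 2007 against 2328 and 2356 (log2 fold change 0.28, adjusted p = 0.0442). It was not called after the correction (0.08, adjusted p = 0.473) and turned to -0.10 by coding mRNAs. Nor was it called by edgeR or DESeq2 or under library total scaling (0.05). *Kdelr3* had 217 and 208 against 161 and 197 (log2 fold change -0.25, adjusted p = 0.278), and 0.01 after the correction. Per kilobase of exon, the share of *Kdelr2* among the 3 was 55.2% to 56.6% in all 4 libraries, and that of *Kdelr3* was 8.35% and 7.59% in the WT libraries and 5.09% and 5.99% in the cKO libraries.

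Over the 44 genes, Spearman's rho between log2 fold change and GC content was -0.54, and 0.18 after the correction. These points share the same 4 libraries, so the values are a description. The median GC content was 44.8% in the 27 genes that were higher, 49.99% in the 14 not called and 53.3% in the 3 that were lower, against 49.1% in all tested genes. *Sec61g* went against this order, being lower with a GC content of 43.7%: the 1387 tested genes within 1 percentage point of it had a median log2 fold change of 0.63. *Surf4*, *Tmed1* and *Sec61a1* lay above the median of genes of like GC content by 1.46, 1.63 and 1.03, and *Tmed7* and *Sec23a* by 1.22 and 1.16.

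**Figure D5:**
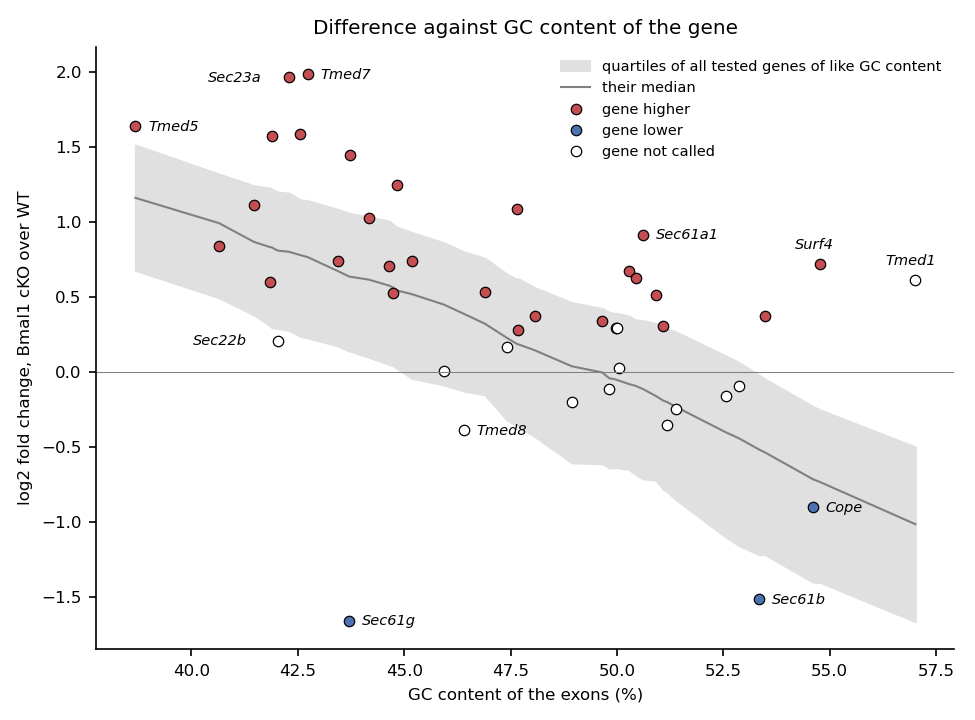
Log2 fold change of Bmal1 cKO over WT against the GC content of the exons (%) for the 44 genes, filled red where higher and blue where lower (adjusted p under 0.05, limma) and open where not called. The grey line and band are the median and quartiles of all tested genes within 1 percentage point of GC content. Sec61g, at -1.66, lies below the band, as do Sec61b, Tmed8 and Sec22b. Tmed7, Sec23a, Sec61a1 and Surf4 are among the genes above it.

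Levels between genes were compared per kilobase of exon. In the WT libraries *Kdelr2* (mean of 1057), *Surf4* (1016), *Tmed2* (995) and *Sec61b* (891) were highest, and *Copz2* (18.0) and *Tmed8* (32.0) lowest. In the cKO libraries *Sar1b* (2039), *Surf4* (1676), *Copb1* (1492) and *Kdelr2* (1280.4) were highest, and *Copz2* (13.1) and *Tmed8* (24.3) were again lowest. *Sec61b* went from the 4th to the 27th place of 44 and *Sec61g* from the 21st to the 41st, while *Tmed7* went from the 23rd to the 5th and *Sec23a* from the 30th to the 9th.

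A further 124 genes of the same route that are not among the 44 were listed by role, and 122 of them were tested. Of these, 54 were higher and 23 lower, or 38 and 12 after the correction, with a median log2 fold change of 0.26 and 0.17. That is 44.3% higher and 18.9% lower, against 29.0% and 27.7% of all tested genes, and 31.1% and 9.84% after the correction, against 16.2% and 17.7%. Some of the lists by role, such as the helpers of COPI without the correction (33.3% and 26.7%) and those of COPII with it (18.2% and 13.6%), were near the shares of all genes. The list of protein translocation, which holds the signal recognition particle, the signal peptidase, the TRAP complex and the oligosaccharyltransferase, had 18 of 31 higher and 3 lower (12 and 5 after the correction). *Magt1*, an oxidoreductase of the oligosaccharyltransferase, had 1405 and 1299 normalized counts against 5315 and 5589 (log2 fold change 2.01, and 0.9995 after the correction). *Ssr3*, the gamma subunit of TRAP, had 3949.6 and 3736 against 10839 and 11399 (1.53, and 0.44). *Spcs3*, of the signal peptidase, had 1521 and 1436 against 4054 and 4584 (1.54, and 0.50). All 3 passed the test with and without the correction, and the groups did not overlap.

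The genes of that list that were lower without the correction were *Ost4*, *Tmem258* and *Srp68*. *Ost4* and *Tmem258* encode the smallest subunits of the oligosaccharyltransferase. *Tmem258* had 442 and 386 normalized counts in the WT libraries and 129.6 and 146 in the cKO libraries (log2 fold change -1.58, adjusted p = 0.00112 from limma, and -1.45 after the correction). *Ost4* had 94.6 and 86.4 against 30.9 and 23.0 (-1.73, adjusted p = 0.00813, and -1.43). *Srp68* had 877 and 916 against 663 and 707, a log2 fold change of -0.39 that turned to 0.13 with the correction. *Srp72* (0.35, and -0.47 after the correction) and *Tusc3* (0.38, and -0.59) went from higher to lower. Among the COPI helpers *Arf4* did so too (0.41, and -0.34), and *Arf5* went from lower to higher (-0.76, and 0.93). These 4 were picked after their values were seen. By coding mRNAs *Tusc3* (0.11, adjusted p = 0.483) and *Arf5* (0.54, adjusted p = 0.0655) were not called. *Srp72* (-0.35) and *Arf4* (-0.41) were lower by coding mRNAs. With the replicate number as a block and the correction, *Arf4* was not called (-0.34, adjusted p = 0.0622).

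The other lists follow by role. Of 17 genes of the ER membrane complex and the tail-anchor pathway, 6 were higher and 4 lower (4 and 0 after the correction), with *Mmgt1* at 1.39 (0.38 after the correction) and *Sgta* at -1.34 (-0.20, not called). Of 22 helpers of COPII, among them the TRAPP tether, 8 were higher and 4 lower (4 and 3), with *Trappc8* at 1.23 and *Trappc6a* at -1.65, neither called after the correction. Of 15 helpers of COPI, 5 were higher and 4 lower (4 and 2), with *Rint1* at 0.92, called with and without it. Of 15 tethers, SNAREs and RAB GTPases, 7 were higher and 4 lower (5 and 1). *Rab6a* had 1949.9 and 1962 normalized counts against 5069 and 5532 (1.44, and 0.70 after the correction), and *Rab1b* had 1564 and 1801 against 784 and 708 (-1.17, and -0.03, not called). Of 13 tested genes of other cargo sorting, 8 were higher and 1 lower (8 and 0), with *Yipf5* at 1.69 (0.87 after the correction) and *Ergic1* at -0.77 (-0.32, not called).

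Of 9 transcription factors that raise secretory capacity, 2 were higher and 3 lower, with a median log2 fold change of 0.04. After the correction 1 was higher and 1 lower, 7 were above 0 and the median was 0.29. *Creb3* had 514 and 447 normalized counts against 855 and 766 (log2 fold change 0.75, adjusted p = 0.00502 from limma, and 1.22 after the correction). *Creb3l1*, which encodes an activator of COPII genes, had 1709 and 1722 against 846 and 811 (-1.05, adjusted p = 0.000695), and turned to 0.29 with the correction (adjusted p = 0.0556). *Xbp1* and *Atf6*, chosen after their values were seen because their proteins bind the motif searched in the promoters, were not called without the correction, at 0.42 (adjusted p = 0.0883) and 0.19 (adjusted p = 0.163). After it *Xbp1* was at 0.52 (adjusted p = 0.066) and *Atf6* was lower, at -0.38 (adjusted p = 0.0354).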

How the data were processed

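RNA of colonic epithelial cells, freed from the colon with EDTA and scraping, was sequenced from 2 WT and 2 *Bmal1* cKO mice. The labels and the methods name different library kits. Per the methods, the authors aligned reads to GRCm38 with STAR and used DESeq2, while the counter, the annotation release and the strand setting are not given in the sources used here. The deposited values are signal, namely gene counts divided by the size factor of each library, and division by the smallest step gave whole reads for all values within 0.01. The table also holds the authors' means, log2 fold changes with standard errors, the Wald statistic (a score) and p-values, none of which were used.

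Groups were taken from the sample titles, and 16003 of 16015 listed genes were matched to GENCODE M21 for coordinates, GC content and length. Genes with a mean of at least 10 were tested with limma 3.58.1 (trend, R 4.3.3) on log2(normalized count + 1), a scale that understates changes of low genes. The p-values were two-sided and Benjamini-Hochberg adjusted over all tested genes, with a threshold of 0.05. With 2 mice a group they set a difference against the spread between these mice. That spread was moderated by limma towards a trend over all tested genes. The correction removed a loess trend (span 0.3) on GC content and exon length from each library. The other settings were pseudocounts of 0.5 and 5, no filter, a minimum mean of 50, library total and TMM scaling, edgeR 4.0.16 and DESeq2 1.42.0 on the recovered reads, a replicate block with and without the correction, the correction by coding mRNAs (chosen after seeing the data) and leaving out each mouse. The limma fits with and without the correction were also run on simulated reads, and the outcome is not given here.

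The members and lists were chosen with earlier results of these data known. All 44 members are accounted for. Given in every library are, in each role group, the gene with the highest mean, those with the lowest adjusted p in each direction, and those whose call or sign the correction changed, with others of the 44 beside them. Of each further pathway list at most 3 genes per direction with the lowest adjusted p were named, and of each marker list at most 3 with the highest mean. Genes named outside these rules, such as *Sdc1*, *Des* and *Rgs5*, were picked after their values were seen. Promoter sequences are from RefSeq (GRCm38.p6), with no entry for *Arcn1*, *Tmed7*, *Sec61a1*, *Tmed2*, *Lman1* and *Kdelr2*.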

Additional observations from a re-analysis of the deposited data

How the results depend on the processing

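The 2 pseudocounts, both filters and TMM scaling changed no call or direction among the 44 genes, although *Copz2* was not tested at a minimum mean of 50. Correcting for GC content and length moved the genes called among all tested from 7930 to 4734 (4544 by coding mRNAs, 4631 with the replicate block), the 44 genes from 27 higher and 3 lower to 16 and 5 (also 16 and 5 with the block, where *Tmed5* was called and *Sec13* was not), and their median log2 fold change from 0.52 to 0.22 (0.24 by coding mRNAs, 0.22 with the block). The other pathway genes went from 54 higher and 23 lower to 38 higher and 12 lower (42 and 14 by coding mRNAs, 33 higher and 10 lower with the block). Library total scaling gave a median of 0.29 with 22 higher and 7 lower, and 43 higher and 32 lower among the other pathway genes.

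Leaving out each mouse gave 4859 to 6006 genes called among all (5187 without cKO mouse 1 and 4859 without cKO mouse 2), 19 to 21 of the 44 higher, a median of 0.44 to 0.49, and 42 to 45 other pathway genes higher and 13 to 17 lower (13 without WT mouse 1, and 15 without WT mouse 2 and without cKO mouse 2). *Sec13*, *Sec24c*, *Sec31a*, *Kdelr1*, *Kdelr2* and *Srp68* were not called without any 1 of the mice. *Sec16b* and *Ost4* were not called without WT mouse 1 or cKO mouse 2 (*Sec16b* also without WT mouse 2), *Copa* without the same pair, *Copb2* without WT mouse 1, *Arcn1* without cKO mouse 2, *Lman2* without cKO mouse 1, and *Fcgbp* and *Col3a1* without either cKO mouse. The lone mouse is then assumed to vary like the other group. Of the markers, 35 were lower, and 15 without cKO mouse 1, 20 without cKO mouse 2 and 39 without WT mouse 2.

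The replicate numbers pair the mice by name alone, since the deviations of same-numbered mice had a correlation of -0.09 over genes. The replicate block gave 7688 genes called, and 25 of the 44 higher and 3 lower, with *Sec24c* and *Kdelr2* no longer called. *Kdelr2* was called in 5 of the 16 alternatives.

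Some signs turned. With the correction, alone or with the block, log2 fold changes were -0.17 (*Tmed2*), 0.31 (*Tmed3*), -0.55 (*Tmed10*), 0.33 (*Sec16a*), -0.0039 (*Sec23b*), -0.70 (*Sec22b*), -0.24 (*Sec63*), -0.084 (*Copa*), -0.086 (*Copb2*), -0.24 (*Arcn1*), 0.013 (*Kdelr3*), 0.13 (*Srp68*), -0.38 (*Atf6*), 0.20 (*Sdc1*), -0.47 (*Srp72*), -0.59 (*Tusc3*), -0.34 (*Arf4*), 0.93 (*Arf5*) and 0.29 (*Creb3l1*). By coding mRNAs they were -0.41 (*Tmed2*), 0.43 (*Tmed3*), -0.15 (*Tmed10*), -0.082 (*Sec22b*), -0.15 (*Sec63*), 0.079 (*Copz2*), -0.25 (*Arcn1*), -0.10 (*Kdelr2*), 0.036 (*Srp68*), -0.67 (*Atf6*), -0.35 (*Srp72*), -0.41 (*Arf4*), 0.54 (*Arf5*) and 0.10 (*Creb3l1*). Under library total scaling they were -0.064 (*Tmed2*), -0.22 (*Tmed10*), -0.019 (*Sec22b*), -0.20 (*Copg1*), -0.036 (*Atf6*) and -0.071 (*Krt8*). *Tmed10* was at -0.012 with edgeR and -0.00383 with DESeq2. Leaving out each mouse gave -0.036 to 0.044 for *Tmed10*, -0.45 to 0.25 for *Tmed3*, -0.026 to 0.072 for *Copg1* and -1.10 to 0.39 for *Copz2*. The cause was not tested.

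With 2 mice a group and no group without DSS, the data do not separate genotype from other differences between the mice. The RNA of the targeted gene did not pass the test. Low genes such as *Copz2* are imprecise at this depth.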
